A study of Rattus norvegicus with 19 samples.

Results

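The early growth response (Egr) genes Egr1, Egr2, Egr3 and Egr4 were described in cultured rat neurons, together with the putative enhancers around them. The 4 genes were taken by symbol from a table of 17715 genes, in which each gene is paired with every transcriptionally active putative enhancer (TAPE) whose centre lies within 1 Mb of its start site. They account for 114 of 388605 TAPE-gene pairs, and the 114 pairs hold 114 different TAPEs out of 27538. A TAPE is a stretch of open chromatin outside genes that gives RNA from both strands, and this RNA is called enhancer RNA (eRNA).

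Total RNA, depleted of ribosomal RNA and sequenced with strand kept, was measured in primary cultures from cortex, hippocampus or striatum of Sprague-Dawley rat embryos at embryonic day 18. Cultures were kept 11 days in vitro and then received vehicle or potassium chloride (KCl), which depolarizes neurons, for 1 h. No genetic change or other agent is given for any group. By the sample titles there were 3 libraries of each treatment in cortex and in hippocampus, and in striatum 4 with vehicle and 3 with KCl. The study's supplementary methods instead list 3 striatal libraries with vehicle and 4 with KCl, and the titles are followed here. The labels of the samples put KCl at 25 mM. The text of the series and the study's own account of these sequenced cultures both put it at 10 mM. The study's methods call the libraries biological replicates, but no label ties them to separate dissections, so each p-value measures only the spread between these libraries. The cultures are mixtures of cells, so a lower value may come from fewer cells of a type or from less RNA per cell, and these cannot be told apart.

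Egr proteins are transcription factors with zinc fingers that bind GC-rich DNA, and their genes are immediate early genes, switched on within minutes of a stimulus without new protein synthesis. In neurons, calcium entry and the ERK kinase pathway act on serum response factor (SRF) at CArG boxes and on CREB at cAMP response elements in the promoters of such genes. Egr1, also called Zif268, is widely used to mark active neurons. Egr2, also called Krox20, is best known from hindbrain patterning and myelination, Egr3 from muscle spindle development, and Egr4 is the least studied of the family.

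Because depolarization acts through promoter elements of this kind, the 250 bases before the start site are shown for the members that the RefSeq promoter table of assembly GRCr8 lists. Capitals mark the core of the cAMP response element, ACGTCA on either strand, and the CArG box. Egr1 lies at chr18:26736828-26737077 on the plus strand of that assembly, Egr2 at chr20:21054442-21054691 on the minus strand and Egr4 at chr4:119607818-119608067 on the minus strand, each printed 5′ to 3′ in the direction of the gene.
Egr1: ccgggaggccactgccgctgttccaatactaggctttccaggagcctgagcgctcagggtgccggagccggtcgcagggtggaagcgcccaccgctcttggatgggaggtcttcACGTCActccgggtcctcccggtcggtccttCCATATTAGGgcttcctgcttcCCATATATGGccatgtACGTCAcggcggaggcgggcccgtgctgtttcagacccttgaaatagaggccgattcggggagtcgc
Egr2: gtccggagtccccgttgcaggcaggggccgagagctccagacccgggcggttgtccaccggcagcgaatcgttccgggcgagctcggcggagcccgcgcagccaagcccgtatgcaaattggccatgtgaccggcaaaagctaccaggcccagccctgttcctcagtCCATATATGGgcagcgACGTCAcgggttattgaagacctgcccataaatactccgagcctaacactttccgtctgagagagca
Egr4: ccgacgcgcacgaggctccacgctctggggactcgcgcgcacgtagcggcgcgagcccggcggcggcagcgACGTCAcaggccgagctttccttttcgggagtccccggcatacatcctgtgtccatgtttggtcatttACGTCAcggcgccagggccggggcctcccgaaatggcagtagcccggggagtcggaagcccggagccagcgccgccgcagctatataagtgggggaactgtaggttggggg

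The Egr1 stretch held 2 ACGTCA cores, 136 to 131 and 67 to 62 bases before the start, and 2 CArG boxes, at 105 to 96 and 83 to 74 bases. The Egr2 stretch held 1 core and 1 CArG box, both at the same distances from the start as the pair nearest the Egr1 start. The Egr4 stretch held 2 cores, at 179 to 174 and 111 to 106 bases, and no CArG box. GCGNGGGCG, the binding sequence of Egr proteins themselves, was in none of the 3 windows on either strand. Over 33469 RefSeq promoter windows of the same length, 6.95% held ACGTCA, 1.5% a CArG box, 4.29% GCGNGGGCG, and 25 windows (0.0747%) both ACGTCA and a CArG box. The motifs searched do not overlap in these 3 windows. Such a match is only a match of letters, and Egr3 was not among the sequences matched.

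By totals recovered from the TAPE values, libraries held 46411271 to 72521193 reads, of which 69.3 to 72.8% lay in genes. The deposited table gives TAPE values in each library and the correlation of each TAPE with each gene, and reads per gene were recovered from these correlations as whole numbers. Levels are given as reads per 1000000 library reads (CPM), without division by gene length, so levels of different Egr genes are not set against each other. They count all reads over the gene in total RNA, and so may include unspliced RNA. One cortex vehicle library, replicate 3, carries a tissue label naming striatum, but its title names cortex. Over all genes tested, each of the 19 libraries was most like the other libraries of its own titled group (r of 0.995 or more), and no call on an Egr mRNA below was lost without the library in doubt. The neuron markers Map2, Rbfox3, Snap25, Syt1 and Tubb3 summed to 3694 to 4177 CPM in every library. The pallial markers, such as Neurod6 and Tbr1, summed to 628 to 727 CPM in cortex and hippocampus and to 2.34 to 3.04 CPM in striatum, and the 7 striatal markers with reads, such as Drd1 and Ppp1r1b, to 316 to 360 and 2830 to 3206 CPM. Microglia markers summed to at most 0.625 CPM and endothelial markers to at most 1.41 CPM.

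The mRNA of all 4 Egr genes rose with KCl in cultures of all 3 regions. The rise was 6.08- to 33.5-fold in cortex, 5.61- to 12.6-fold in striatum and 1.76- to 3.71-fold in hippocampus. Every KCl library stood above every vehicle library of its region, for each gene. How many of all genes show such a separation was not counted, here or between regions below. Separations of this kind only describe the values.

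For Egr1, the cortex vehicle libraries were at 58.8, 62.2 and 52.0 CPM and the cortex KCl libraries at 380.5, 459 and 452 CPM. In hippocampus, Egr1 was at 119, 123 and 129 CPM with vehicle and at 209, 209.5 and 236 CPM with KCl. In striatum, Egr1 was at 45.3, 40.7, 62.1 and 58.6 CPM with vehicle and at 385, 372 and 401 CPM with KCl. The hippocampal libraries thus lay in the middle, above all other vehicle libraries and below all other KCl libraries. Behind these values were 2018 to 30923 reads per library.

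Egr2 had 161 to 2924 reads per library. Cortex libraries were at 3.09, 2.92 and 2.75 CPM with vehicle and at 46.0, 43.5 and 42.8 CPM with KCl. Hippocampal libraries were at 12.6, 13.4 and 11.99 CPM with vehicle and at 24.4, 24.6 and 23.8 CPM with KCl. Striatal libraries were at 3.68, 3.24, 5.19 and 5.86 CPM with vehicle and at 44.01, 44.05 and 47.8 CPM with KCl. No hippocampal value overlapped with one of another region under the same treatment.

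Egr3, with 427 to 3388 reads per library, differed in that its KCl levels came together. Cortex vehicle libraries were at 8.42, 8.49 and 8.42 CPM, and cortex KCl libraries at 51.7, 53.2 and 49.5 CPM. Hippocampal libraries were at 24.4, 25.4 and 24.0 CPM with vehicle and at 51.3, 46.2 and 54.0 CPM with KCl, the latter overlapping with cortex. Striatal libraries were at 8.77, 8.60, 11.5 and 13.3 CPM with vehicle and at 56.9, 58.8 and 59.8 CPM with KCl.

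Egr4 had 157 to 6514 reads per library. Cortex libraries were at 2.98, 3.12 and 2.33 CPM with vehicle and at 94.2, 91.5 and 95.2 CPM with KCl. Hippocampal libraries were at 8.15, 9.11 and 8.21 CPM with vehicle and at 32.0, 28.8 and 34.0 CPM with KCl. Striatal libraries were at 7.32, 7.27, 11.1 and 11.5 CPM with vehicle, on both sides of the hippocampal ones, and at 122, 111 and 113 CPM with KCl. In striatum, vehicle replicates 2 and 4 were below vehicle replicates 6 and 8 for each of the 4 genes.

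**Figure D1:**
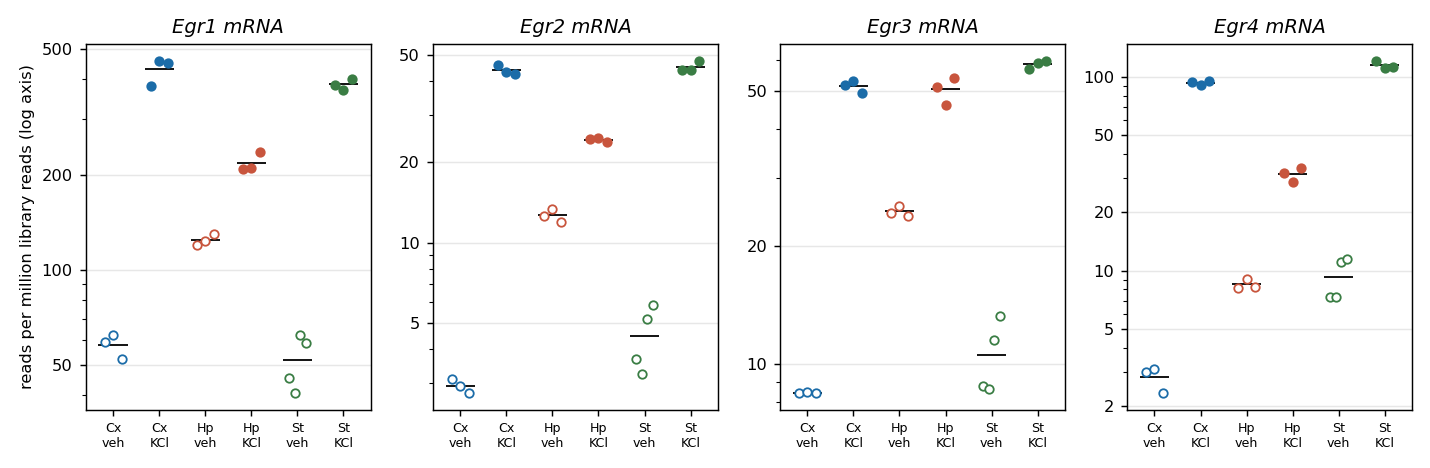
Egr1 to Egr4 mRNA in each of the 19 libraries, in reads per 1000000 library reads on a log axis with a separate scale for each gene. Open points are vehicle (veh) and filled points KCl, black bars are group means, and Cx, Hp and St stand for cortex, hippocampus and striatum. In every panel the KCl points lie above the vehicle points of their region, and the step is smallest in hippocampus, as for Egr1 from 124 to 218 CPM.

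Over the 3 regions together, the mean difference between KCl and vehicle was 267 CPM for Egr1, 31.2 for Egr2, 39.0 for Egr3 and 73.4 for Egr4. In an exact permutation test within regions (two-sided, 14000 arrangements), each gene had p = 7.14e-05, the smallest this design allows. The Benjamini-Hochberg adjusted p over 16502 genes was 0.00184 for each, and 6.07% of those genes were called higher with KCl.

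Fold changes within each region were fitted with limma voom on the recovered reads of 11982 genes, a test chosen after it was seen that whole reads could be recovered. In cortex, Egr1 rose 7.47-fold (95% confidence interval 6.61 to 8.46, adjusted p = 4.19e-11), Egr2 15.1-fold (12.7 to 17.8), Egr3 6.08-fold (5.42 to 6.83) and Egr4 33.5-fold (28.0 to 40.0). By the size of the rise, Egr4 was the 4th and Egr2 the 12th of 11982 genes there, with Egr1 23rd and Egr3 30th. All 4 were called, where 4.64% of genes were called higher with KCl in cortex.

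In striatum, Egr1 rose 7.53-fold (6.82 to 8.33, adjusted p = 9.52e-22), Egr2 10.2-fold (8.71 to 11.99), Egr3 5.61-fold (4.98 to 6.31) and Egr4 12.6-fold (11.0 to 14.4). All 4 were among the 23 genes with the largest rise, and 8% of genes were called higher. In hippocampus, Egr1 rose 1.76-fold (1.64 to 1.89, adjusted p = 8.86e-10), Egr2 1.92-fold (1.72 to 2.13), Egr3 2.05-fold (1.86 to 2.26) and Egr4 3.71-fold (3.26 to 4.23). All 4 were called there too, beside 4.79% of genes called higher, but they ranked 128th, 103rd, 90th and 35th. The largest adjusted p of these 12 changes was 3.45e-08, for Egr2 in hippocampus, and the median log2 change of all genes was -0.04 in cortex and hippocampus and -0.06 in striatum.

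**Figure D2:**
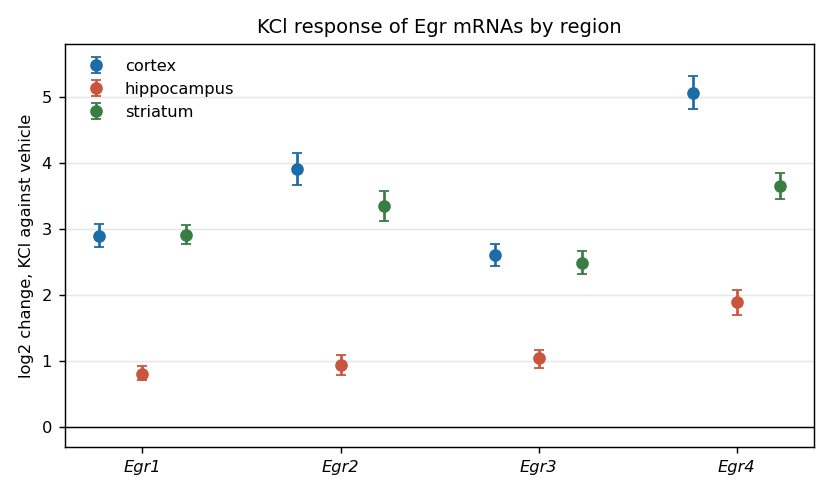
Change of each Egr mRNA with KCl against vehicle, on the log2 scale, in cortex, hippocampus and striatum. Points are limma voom estimates and bars their 95% confidence intervals. Hippocampus (0.81 to 1.89) lies below both other regions for all 4 genes, and cortex lies above striatum for Egr4 (5.06 and 3.65).

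The effect of KCl depended on region for all 4 genes. In the limma voom F-test of the interaction over 19 libraries, the adjusted p was 1.58e-11 for Egr1, 1.18e-12 for Egr2, 1.11e-09 for Egr3 and 1.9e-11 for Egr4. In all, 3.72% of 11982 genes were called in that test, and Egr2, Egr1 and Egr4 ranked 2nd, 4th and 5th by p, with Egr3 17th.

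The log2 change in cortex exceeded that in hippocampus by 2.09 for Egr1, 2.97 for Egr2, 1.57 for Egr3 and 3.17 for Egr4 (largest adjusted p = 5.36e-09), in a comparison where 2.12% of genes were called. That in striatum exceeded hippocampus by 2.10, 2.42, 1.45 and 1.76 in the same order (largest adjusted p = 3.23e-08), where 2.04% were called. Between striatum and cortex, with 2.35% of genes called, Egr4 alone of the 4 differed, its log2 change in striatum minus that in cortex being -1.41 (SE 0.20, adjusted p = 3.71e-05). For Egr1 the fold change in striatum divided by that in cortex was 1.01 (95% confidence interval 0.835 to 1.22). For Egr3 this ratio was 0.923 (0.761 to 1.12, adjusted p = 0.822). For Egr2 it was 0.680 (0.530 to 0.873, adjusted p = 0.114), and without striatum vehicle replicate 4 the difference was -0.68 on the log2 scale and passed (adjusted p = 0.022).

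Hippocampus, with the smallest responses, had the highest vehicle levels of Egr1, Egr2 and Egr3. In vehicle cultures, hippocampus stood above cortex by 2.15-fold for Egr1 (1.86 to 2.49), 4.33-fold for Egr2 (3.52 to 5.34), 2.91-fold for Egr3 (2.50 to 3.39) and 3.03-fold for Egr4. It stood above striatum by 2.42-fold for Egr1, 2.86-fold for Egr2 and 2.36-fold for Egr3, but Egr4 was at 8.49 ± 0.538 CPM in hippocampus (SD, n = 3) and 9.31 ± 2.33 CPM in striatum (n = 4), which did not differ (limma voom adjusted p = 0.475, striatum to hippocampus ratio 1.08, 95% confidence interval 0.888 to 1.31). Such differences were common, since 53.5% of genes were called between cortex and hippocampus and 74.5% between striatum and hippocampus in vehicle cultures, so that the count of Egr genes called says little about them. By size, the Egr2 difference between vehicle cortex and hippocampus ranked 295th of 11982 genes.

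Between the vehicle cultures of striatum and cortex, where 69.7% of genes were called, Egr4 was 3.28-fold higher in striatum (2.52 to 4.26) and Egr2 1.51-fold higher (1.20 to 1.91). Egr1 did not differ by the test (adjusted p = 0.154), but its log2 difference was -0.27 and passed without striatum vehicle replicate 6 (adjusted p = 0.0262). Egr3 was 1.23-fold higher in striatum (adjusted p = 0.0227), a call that was lost without striatum vehicle replicate 6 (adjusted p = 0.0735) or 8 (adjusted p = 0.135).

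With KCl, the order turned. Cortex stood above hippocampus by 1.98-fold for Egr1, 1.81-fold for Egr2 and 2.97-fold for Egr4, with 57% of genes called in that comparison, while Egr3 was at 51.5 ± 1.84 CPM in cortex and 50.5 ± 3.996 CPM in hippocampus (SD, n = 3 each; limma voom adjusted p = 0.762). Striatum stood above hippocampus by 1.77-fold for Egr1, 1.87-fold for Egr2 and 3.66-fold for Egr4, with 71.4% of genes called. Egr3 was 1.16-fold higher in striatum than hippocampus, which was lost without hippocampus KCl replicate 2 (adjusted p = 0.0714). Between striatum and cortex with KCl, where 65.4% of genes were called, Egr2 was alike in both groups to within its error (44.1 ± 1.73 and 45.3 ± 2.17 CPM in cortex and striatum, SD, n = 3 each), with a ratio of 1.03 (0.937 to 1.13). Egr4 was 1.23-fold higher in striatum (1.12 to 1.35), and Egr3 was 0.19 higher on the log2 scale (adjusted p = 0.0205), which failed without cortex KCl replicate 3 or striatum KCl replicates 5 or 7 (adjusted p of 0.0518 to 0.0866). Egr1 in striatum differed from cortex by -0.16 on the log2 scale and did not pass (adjusted p = 0.0869), but passed without cortex KCl replicate 1 (adjusted p = 0.00658), the lowest of the cortex KCl libraries.

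With vehicle and KCl pooled in an exact permutation test within treatments, Egr3 (4.57 CPM, adjusted p = 0.017) and Egr4 (14.2 CPM, adjusted p = 0.0036) were higher in striatum than in cortex, where 57.3% of 16502 genes were called. Egr4 was also higher in striatum than in hippocampus (42.4 CPM, adjusted p = 0.043), where 64.2% were called, but this call was lost without hippocampus vehicle replicate 1 or 3 or striatum vehicle replicate 6 or 8 (adjusted p of 0.058 to 0.0766). Egr1, lower in striatum than in cortex by a mean of -25.2 CPM, did not pass (adjusted p = 0.207) except without cortex KCl replicate 1 (adjusted p = 0.0316). None of the 4 genes passed between cortex and hippocampus (adjusted p from 0.121 to 0.474), where 45% of genes were called, and for Egr1, Egr2 and Egr4 the sign of that difference was opposite in vehicle and KCl cultures. These tests had 700, 700 and 400 arrangements, and the smallest p they allow is 0.00143, 0.00143 and 0.005.

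Markers of other cells differed between the same regions. The 5 astrocyte markers, Gfap, Aqp4, Aldh1l1, Slc1a2 and Slc1a3, summed to 1760 to 1848 CPM in hippocampus, 922 to 1083 CPM in cortex and 226 to 252 CPM in striatum. The 6 oligodendrocyte lineage markers summed to 345 to 414 CPM in hippocampus, 453 to 489 CPM in cortex and 166 to 203 CPM in striatum. Members did not all follow their sum. In vehicle cultures Gfap was at 753 CPM in hippocampus and 42.7 in cortex, but Aldh1l1 at 9.69 and 22.8. Pdgfra was at 93.4 CPM in hippocampus and 185 in cortex, but Olig1 at 168 and 128 and Sox10 at 11.5 and 7.32. Prox1, a transcription factor of dentate granule neurons, was at 157 to 162 CPM in hippocampus, 7.79 to 18.9 CPM in cortex and 2.80 to 8.11 CPM in striatum. Of these, Prox1 was called higher with KCl in cortex and striatum and not in hippocampus, and 0 of the astrocyte and oligodendrocyte markers were called in any region. The part of these cells in the hippocampal Egr levels was not tested.

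The Egr responses were set beside those of 34 other early response genes. Reads were recovered for 33 of them, and all 33 passed the filter on low values. With KCl, 30 of 33 were called higher in cortex, 31 of 33 in hippocampus and 30 of 33 in striatum, and 0 lower. Their median log2 changes were 2.77, 1.82 and 1.9. Over all genes, 4.64%, 4.79% and 8% were called higher in the same order, and 0.726%, 8.39% and 20.5% lower. Hippocampal cultures thus did respond. Fosb, an AP-1 subunit, rose 64.4-fold in cortex, 67.3-fold in hippocampus and 13.1-fold in striatum. Fos, its best known relative, rose 14.8-, 11.96- and 7.26-fold, and Nr4a2, an orphan nuclear receptor, 8.85-, 21.4- and 8.15-fold.

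The place of the Egr genes in this list differed by gene and region. In cortex, 14 of the 33 genes had a larger log2 change than Egr1, 8 than Egr2, 17 than Egr3 and 3 than Egr4. In striatum the numbers were 8, 6, 13 and 4. In hippocampus they were 28, 26, 25 and 16. The log2 change in cortex minus that in hippocampus was above the value of Egr1 in 2 of the 33 genes, of Egr2 in 2, of Egr3 in 5 and of Egr4 in 2. Of the 33, 16 responded more in cortex than in hippocampus by this test and 3 less, beside 215 and 39 of all 11982 genes. In the interaction test 27 of the 33 were called, beside 3.72% of all genes. Arc, which acts in synaptic plasticity and is a reported Egr target, showed a similar order to the Egr genes, with rises of 41.9-fold in cortex, 3.93-fold in hippocampus and 13.5-fold in striatum. So did Fosl1, another AP-1 subunit, with 28.8-, 1.89- and 15.99-fold.

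**Figure D3:**
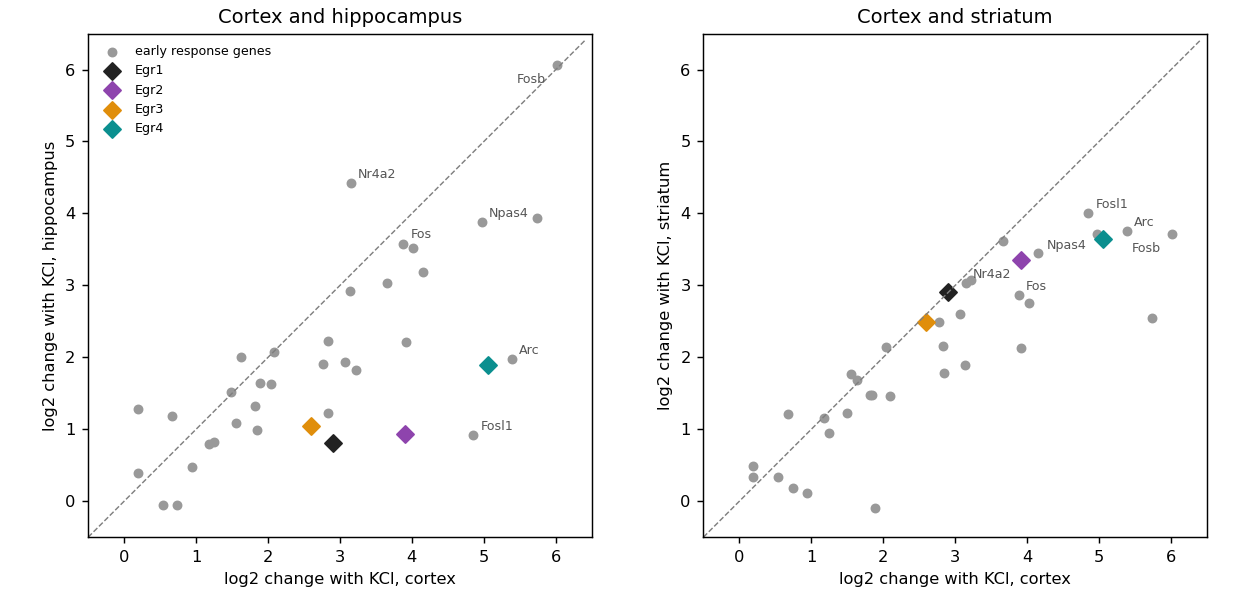
log2 change with KCl in hippocampus (left) and striatum (right) against that in cortex, for 33 early response genes (grey points, 6 named) and the 4 Egr genes (diamonds), with a dashed line of equal change. In the left panel the Egr diamonds lie far below the line, from 0.81 to 1.89 in hippocampus against 2.6 to 5.06 in cortex, while Fosb lies on it and Nr4a2 above it. In the right panel Egr1 and Egr3 lie near the line and Egr4 below it.

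The genes most like each Egr gene were taken over the 19 libraries. By Pearson's r of CPM, given as a description over libraries that share treatment and region, Egr1 and Egr2 were each other's nearest (0.984). Next for Egr1 came Junb, an AP-1 subunit (0.967), Btg2, an antiproliferative factor (0.959), Cyr61, a secreted matrix protein (0.954), and Tiparp (0.953). Next for Egr2 came Junb (0.979), Spty2d1 (0.977), Arl5b (0.970) and Tiparp (0.968). For Egr4 they were Fosl1 (0.987), the neuronal activity factor Npas4 (0.983), the nuclear receptor Nr4a1 (0.982), Cyr61 (0.981) and Spty2d1 (0.975). Egr3 had a different set, led by Irs2, an adaptor of the insulin receptor (0.986), and Insig1, a regulator of sterol synthesis (0.975), then Nr4a3 (0.973), Jun (0.971) and Srf (0.969). Within the family, Egr3 and Egr4 were least alike (0.852), and Egr1 and Egr3 followed (0.913).

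Of 27 symbols listed for co-repressors and upstream factors, 22 had recovered reads, and all 22 passed the filter on low values. Cortex had 7 members called higher and 0 lower, hippocampus 5 and 2, and striatum 8 and 6. Their median log2 change was -0.03, -0.03 and 0.01. Over all genes, 4.64% were called higher and 0.726% lower in cortex, 4.79% and 8.39% in hippocampus, and 8% and 20.5% in striatum. That split depends on scaling: 574 genes were called higher and 1005 lower in hippocampus and 959 and 2452 in striatum, against 834 and 732, and 1665 and 1404, with median-ratio scaling. Nab1 and Nab2 are co-repressors that bind Egr proteins. Nab1 rose 1.25-fold in cortex, 1.16-fold in hippocampus and 1.21-fold in striatum, and Nab2 1.97-fold in cortex and 1.20-fold in striatum, while its hippocampal value was 1.16-fold (adjusted p = 0.061). Srf itself rose 1.64-, 1.21- and 1.75-fold in cortex, hippocampus and striatum. The ERK phosphatases Dusp4, Dusp5 and Dusp6 rose in all 3 regions, Dusp5 by 2.28-, 1.28- and 2.77-fold. Mef2d, a calcium-regulated transcription factor, rose 1.40-fold in cortex and 1.11-fold in striatum. The 2 members called lower in hippocampus were the SRF partner Mrtfa (0.815-fold) and the CREB co-activator Crtc1 (0.873-fold), and with median-ratio scaling 1 member was. In striatum Creb1 was lowest of those called (0.731-fold), and with that scaling 3 members were called lower rather than 6.

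Of 11 reported Egr target genes, 10 had recovered reads and 9 passed the filter on low values. Of these, 3, 2 and 3 were called higher in cortex, hippocampus and striatum and 0 lower. Of all genes, 4.64%, 4.79% and 8% were called higher and 0.726%, 8.39% and 20.5% lower in the same order. The targets called were Nab1 and Arc in all regions and Nab2 in cortex and striatum. With median-ratio scaling 5 were called higher in striatum, among them Dlg4 (adjusted p = 0.00496) and Syn1 (adjusted p = 0.0205). The synaptic genes of the list, Syn1, Syn2 and Dlg4, had folds between 0.958 and 1.04, and none was called in any region without that scaling. Of 10 other zinc finger genes of the Wt1, Sp and Klf families, 9 passed, and Klf5, Klf9 and Klf16 were called higher in each region, Klf5 by 1.76-, 2.08- and 2.06-fold. Sp1 and Sp3 were called lower in striatum (0.895- and 0.923-fold), a share of the 9 close to the 20.5% of all genes, and neither was with median-ratio scaling.

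The loci differed in how many TAPEs they had and where. By Rn6 positions in the deposited table, Egr1 lies at chr18:27657628-27661429 on the plus strand, Egr2 at chr20:22454463-22459025 on the minus strand, Egr3 at chr15:51756736-51760722 on the plus strand and Egr4 at chr4:117293620-117296082 on the minus strand. Egr1 and Egr2 each had 34 TAPEs within 1 Mb, Egr3 had 28 and Egr4 had 18. Of the 114, 74 lay upstream of the start site and 40 downstream, and 18 lay within 100 kb. The nearest was 7.62 kb upstream for Egr1, 8.63 kb downstream for Egr4, 11.1 kb upstream for Egr2 and 53.9 kb upstream for Egr3, which had 24 of its 28 TAPEs upstream. All TAPEs are intergenic by definition, more than 1 kb from annotated genes. An Egr gene was the nearest gene of 14 of the 114 TAPEs and the best-correlated gene of 7.

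RNA at these TAPEs was scarce. TAPE values are reads per kilobase per 1000000 library reads (CPKM), and the median TAPE of the 114 had 0.737 reads per library. A mean CPKM of at least 0.05, the filter for testing, was reached by 2 of the 114, one at Egr1 and one at Egr3, and by 1870 of all TAPEs. The other 112 were tested only without that filter. In that limma test 0 of the 114 were called with KCl in any region. It called almost no TAPE at all, with 0 of 27538 in cortex, 0 in hippocampus and 2 in striatum. An unadjusted p under 0.05 was found for 5 of the 114 in cortex, 5 in hippocampus and 6 in striatum. Of the 1870 TAPEs that passed the filter, 195, 249 and 282 had such a p in the same order, in the filtered test. At a median of 0.737 reads per library, the counts for the 114 cannot show whether KCl had an effect.

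The Egr1 TAPE that passed lay 34.6 kb downstream of the start site (chr18:27691544-27692850), at 33.5 kb from Etf1, its nearest gene, and was best correlated with Cdc23 (r = 0.65). In cortex it was at 0.0982, 0.127 and 0.0682 CPKM with vehicle and at 0.165, 0.193 and 0.123 CPKM with KCl, with an overlap of the groups. In hippocampus it was at 0.0677, 0.158 and 0.139 CPKM with vehicle and 0.147, 0.0945 and 0.0510 CPKM with KCl. In striatum it was at 0.283, 0.293, 0.317 and 0.119 CPKM with vehicle and 0.217, 0.155 and 0.0587 CPKM with KCl. The 3 highest values were thus striatal vehicle libraries, where Egr1 mRNA was low. The log2 difference with KCl was 0.52 in cortex (SE 0.30, limma adjusted p = 0.566), -0.23 in hippocampus (SE 0.35, adjusted p = 0.806) and -0.68 in striatum (SE 0.34, adjusted p = 0.362). Its r with Egr1 was -0.16 over all libraries, 0.76 in cortex, -0.37 in hippocampus and -0.62 in striatum.

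The Egr3 TAPE that passed lay 595 kb downstream (chr15:52350614-52353150), only 7.25 kb from Npm2, and was best correlated with Ppp3cc (r = 0.74), a subunit of calcineurin. It had 21 to 79 reads per library. In striatum it was at 0.458, 0.445, 0.476 and 0.538 CPKM with vehicle and at 0.186, 0.378 and 0.227 CPKM with KCl, with no overlap. Cortex spanned 0.178 to 0.392 CPKM and hippocampus 0.150 to 0.339 CPKM, with KCl and vehicle values mixed in both. The log2 difference with KCl in striatum was -0.80 (SE 0.21) and did not pass (limma adjusted p = 0.102, unadjusted p = 0.00225), while it passed with a filter at 0.1 CPKM (adjusted p = 0.0426) and with voom on recovered reads (adjusted p = 0.0393). It was -0.18 in cortex (adjusted p = 0.864) and -0.01 in hippocampus (adjusted p = 0.995). Its r with Egr3 was the lowest of the 114 pairs, at -0.53.

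In all, 0 of the 2 testable TAPEs were called with KCl in any region by limma, with 1 at an unadjusted p under 0.05 in striatum, and 0 were called in the interaction test or in the test of region dependence (adjusted p = 0.0583 for the Egr3 TAPE and 0.104 for the Egr1 TAPE). In the pairwise tests between regions, the Egr3 TAPE was higher in striatum than in hippocampus (log2 difference 0.61, adjusted p = 0.0249), where 43% of TAPEs were called, and the Egr1 TAPE was not called (0.62, adjusted p = 0.052). Neither was called between striatum and cortex (33.3% of TAPEs called) or cortex and hippocampus (14.9% called). Region dependence was called for the Egr3 TAPE without cortex vehicle replicate 1, hippocampus vehicle replicate 2 or striatum KCl replicate 1, and for both without striatum KCl replicate 7. Over 1870 TAPEs, 0.321% were called with KCl in cortex, 0.0535% in hippocampus, 1.23% in striatum and 0.0535% in the interaction, and 48.8% depended on region.

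The correlations deposited for the 114 pairs were mostly low. Pearson's r over all libraries exceeded 0.5 in 4 pairs (3.51%), 2 at Egr1 and 2 at Egr2, against 5.3% of all pairs, and ranged from -0.53 to 0.67 with 45 positive and 69 negative. Within cortex r exceeded 0.5 in 14 pairs (12.3%, all pairs 14.2%), within hippocampus in 14 (12.3%, all pairs 14%) and within striatum in 7 (6.14%, all pairs 11.5%). It did so in all 3 regions in 0 of 114 pairs. Without cortex KCl replicate 2, r over the remaining libraries exceeded 0.5 in 1 of the 114 pairs. These points share library and depth, and most rest on few reads.

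**Figure D4:**
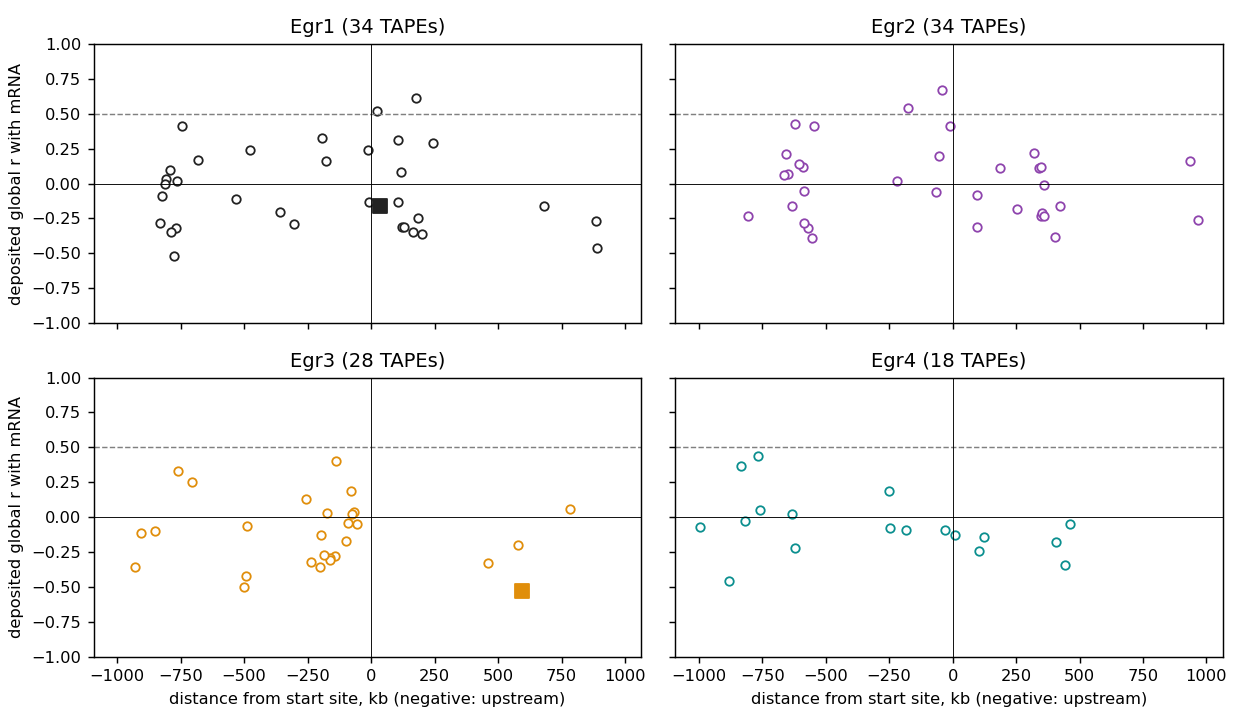
The 114 TAPEs around Egr1, Egr2, Egr3 and Egr4, by distance of their centre from the gene's start site (kb, negative upstream) and deposited Pearson r with the gene's mRNA over 19 libraries. Filled squares are the 2 TAPEs that passed the filter on low values, open circles the other 112, and the dashed line marks r = 0.5. Points above that line appear only for Egr1 and Egr2 (4 in all), and Egr3 has no TAPE between its start site and 461 kb downstream.

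Egr1 was both the nearest and the best-correlated gene of a TAPE 23.7 kb downstream of its start site (chr18:27679178-27683531), with r = 0.52 over all libraries and 0.87 in cortex. Its mean of 0.0452 CPKM lay just below the filter, with 217 reads in all. The cortex libraries held 15, 2 and 8 reads with vehicle and 13, 28 and 26 with KCl, that is 0.0552, 0.00633 and 0.0273 CPKM against 0.0643, 0.108 and 0.0873 CPKM, with no overlap. In hippocampus the values were 0.0487 to 0.0583 CPKM with vehicle and 0.00402 to 0.0608 CPKM with KCl, and in striatum 0.00925 to 0.0516 CPKM and 0.0254 to 0.0434 CPKM, overlapping in both. With no filter, the cortex log2 difference was 0.81 (SE 0.27) and did not pass (limma adjusted p = 0.711, unadjusted p = 0.0253). The KCl effect in cortex minus that in hippocampus was 1.14 there (unadjusted p = 0.0167, adjusted p = 0.803).

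The other 3 pairs above 0.5 rested on 6 to 13 reads. The Egr1 TAPE 176.0 kb downstream (r = 0.61) had 13 reads in 5 libraries, 4 of them in each of cortex KCl replicates 2 and 3. The Egr2 TAPE 42.3 kb upstream (chr20:22500342-22502243, r = 0.67) had 10 reads, 2 in each of the 3 striatum KCl libraries, 2 in a cortex KCl and 2 in a hippocampus KCl library. It had 0 in all 10 vehicle libraries, where a count of 0 allows up to 3 read pairs, whose mates count separately. Egr2 was its nearest and best-correlated gene. The Egr2 TAPE 175 kb upstream (r = 0.54) had 6 reads, 5 of them in cortex KCl libraries, and was better correlated with Jmjd1c (0.62).

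The nearest TAPEs of the 4 genes gave little RNA. Those 7.62 kb and 12.6 kb upstream of Egr1 had 32 and 64 reads in all and r of -0.13 and 0.24, and their best-correlated genes were Reep2 (0.55) and Kdm3b (0.71). The one 11.1 kb upstream of Egr2 had 3 reads and that 54.9 kb upstream had 10. The nearest of Egr3, at 53.9, 66.4 and 73.7 kb upstream, had 4, 11 and 18 reads and r of -0.05 to 0.04. The nearest of Egr4, the member with the largest response to KCl, were at 8.63 kb downstream and 30.4 kb upstream. They had 39 and 8 reads and r of -0.13 and -0.09. With so few reads, these r cannot show whether the RNA of these TAPEs followed Egr4.

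**Figure D5:**
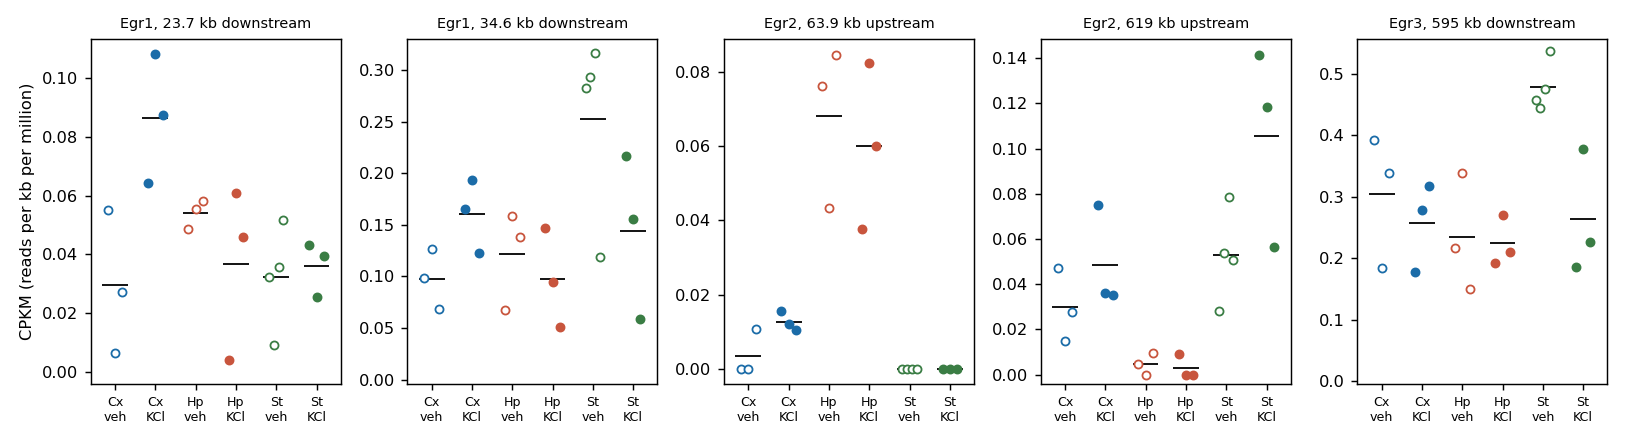
CPKM in each of the 19 libraries for 5 TAPEs of Egr1, Egr2 and Egr3, with open points for vehicle (veh), filled points for KCl, black bars for group means and a separate scale for each TAPE. In cortex the KCl points of the Egr1 TAPE at 23.7 kb lie above the vehicle points without a call (adjusted p = 0.711), the Egr2 TAPE at 63.9 kb is near or at 0 outside hippocampus, the Egr2 TAPE at 619 kb is near or at 0 in hippocampus, and in striatum the KCl points of the Egr3 TAPE at 595 kb lie below the vehicle points without a call (adjusted p = 0.102).

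Without the filter on low values, 8 of the 114 TAPEs depended on region by the limma F-test, against 7.36% of all 27538 TAPEs, which is close to the same share. The following 2 TAPEs of Egr2 had opposite patterns. The one 63.9 kb upstream (chr20:22521533-22524316), chosen after its values were seen, had 12, 7 and 13 reads in hippocampus vehicle and 6, 13 and 10 in hippocampus KCl libraries, 8 reads in the 6 cortex libraries together, and 0 in the 7 striatum libraries, where a count of 0 allows up to 3 read pairs (adjusted p = 4e-06). Egr2 was its nearest gene, its r with Egr2 was -0.06, and its best-correlated gene was Zfp365 (0.6). The other lay 619 kb upstream (chr20:23076572-23080308) and had 6 to 28 reads in striatum and 4 to 13 in cortex libraries but 0 to 2 in hippocampus libraries (adjusted p = 0.000729). Of the genes within 1 Mb, Egr2 was best correlated with it (r = 0.43), although Reep3 was nearer, at 165 kb. In striatum its CPKM was 0.0283, 0.0539, 0.0785 and 0.0508 with vehicle and 0.142, 0.118 and 0.0564 with KCl, overlapping and not called (adjusted p = 0.82).

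The remaining TAPEs named by the rule had 3 to 21 reads each. The Egr3 TAPE 761 kb upstream, best correlated with Egr3 (r = 0.33), had 9 of its 16 reads in the 3 striatum KCl libraries. The Egr4 TAPE 766 kb upstream (r = 0.44) had all 21 reads in striatum, 8 with vehicle and 13 with KCl, and was nearest to Fam136a. The Egr4 TAPE 832 kb upstream (r = 0.37) had 11 reads, and that 251 kb upstream (r = 0.19) had 4. The Egr3 TAPEs 137 and 703.5 kb upstream (r of 0.4 and 0.25) had 11 and 17 reads, the Egr1 TAPE 743 kb upstream (r = 0.41) had 3, and the Egr4 TAPE 105.5 kb downstream (r = -0.24) had 6, all of them in hippocampus vehicle libraries.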

How the data were processed

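Per the labels and the study's methods, reads were trimmed with Trim Galore 0.4.5, aligned with STAR to rn6 and counted in SeqMonk. The authors deposited, for each of 19 libraries, TAPE values as CPKM, an RPKM-type unit (reads per kilobase of TAPE per 1000000 library reads), and the Pearson correlation score of each TAPE with each gene. The authors set TAPE boundaries on pooled libraries and excluded regions within 1 kb of genes. No column of authors' fold changes or p-values was used.

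Library totals were recovered from CPKM steps as whole reads. Gene profiles solved from the deposited correlations gave whole reads, within a tolerance of 0.05, for all 16502 of 17715 genes that had a profile. For the Egr genes the largest distance from a whole number was 0.0014, and deposited regional correlations left out of the solution were returned within 9.9e-15. Tested on simulated data, 204 of 204 genes were recovered. Mates of a read pair count separately. Depth by the recovered totals was 46411271 to 72521193 reads per library. The study's methods give a lower range of reads per sample, and this difference was not resolved. Read floors (3 read pairs for a count of 0) cover counting error only.

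The exact permutation test of the standardised profile, an affine transform of CPM, was the planned test of mRNA. limma 3.58.1 (R 4.3.3) with voom, for genes of at least 0.5 mean CPM, was added after the reads proved recoverable. TAPEs were tested with limma on log2(CPKM + 0.05) where the mean was at least 0.05 CPKM, so a fold change of a low TAPE is understated. All adjusted p-values are Benjamini-Hochberg values over all features tested, two-sided, with a threshold of 0.05. On simulated data, voom called 97.5% of 200 genes changed 2-fold in cortex (11982 genes tested), and limma called 24.5% of 200 TAPEs changed 2-fold in cortex (1870 TAPEs tested).

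Groups follow the sample titles. The TAPEs named were those that passed the filter and, for each gene, the 3 nearest and the 3 with the highest correlation, and the 5 genes most alike by r were named for each gene. The members and lists were chosen with earlier results of these data known. Alternatives covered pseudocounts, filters, ranks, scaling, a replicate block, fits of all groups and each library left out. TAPE sequences were not used here.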

Additional observations from a re-analysis of the deposited data

Results flagged for a closer look

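The KCl response differed between regions for the Egr genes by the test of the difference itself (limma voom, log2 change in 1 region minus that in another). Cortex exceeded hippocampus by 2.09 for Egr1, 2.97 for Egr2, 1.57 for Egr3 and 3.17 for Egr4. Striatum exceeded hippocampus by 2.10, 2.42, 1.45 and 1.76 in the same order. Between striatum and cortex the difference passed for Egr4, at -1.41.

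In 2 of 16 groups of 4 libraries tested, the gap between 1 library and the others passed Dixon's limit. In both, the other libraries were at 0, where any read at all passes that limit whatever its value. The usual rate of about 1 group in 20 by chance does not hold there. Both rest on few reads, and a count of 0 allows up to 3 read pairs. For the Egr2 TAPE 54.9 kb upstream, striatum vehicle replicate 2 was at 0.0309 CPKM (4 reads) and the other striatum vehicle libraries at 0. For the Egr4 TAPE 832 kb upstream, striatum vehicle replicate 6 was at 0.0101 CPKM (1 read) and the others at 0.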

How the results depend on the processing

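The KCl effect on all 4 Egr mRNAs kept its direction and its call under each of 21 alternatives to the permutation test (largest adjusted p = 0.00807) and each of the 108 alternatives run for the limma voom changes within regions. Leaving out 1 library, the log2 change in hippocampus ran from 0.76 to 0.85 for Egr1 and from 1.84 to 1.96 for Egr4. A replicate block in cortex and hippocampus limits only the arrangements. The mean profile difference is therefore the same with and without it, at 0.405 for Egr1, 0.413 for Egr2, 0.436 for Egr3 and 0.382 for Egr4. The block changed none of these 4 calls. Deviations of same-numbered libraries correlated at -0.16, 0.113 and -0.233 in cortex and at -0.162, -0.139 and 0.0436 in hippocampus. Those of differently numbered cortex libraries ran from -0.183 to 0.28. With 3 libraries in each of these groups, this cannot decide whether replicate numbers pair the libraries, and striatum shares no numbers.

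Region differences were less stable, and the cause was not tested. With ranks over libraries, Egr2 was higher in striatum than in cortex by 2.58 ranks (adjusted p = 0.0418), and Egr4 differed between striatum and hippocampus by 1.5 ranks (adjusted p = 0.251). Leaving out 1 library, the profile difference between striatum and cortex ran from -0.0594 to -0.0298 for Egr1, that between striatum and hippocampus from 0.217 to 0.243 for Egr4, and the striatum minus cortex difference of the Egr2 response from -0.68 to -0.41. In striatum, 1 Egr TAPE was called with KCl with a filter at 0.1 CPKM and 1 with voom on recovered reads. Region dependence was called for 1 Egr TAPE with a pseudocount of 0.2, for 1 with treatment as a covariate, for 8 with no filter and for 0 to 2 leaving out 1 library. Pairs with r above 0.5 fell from 4 to 1 with Spearman's rho and 2 on log2 values, and ran from 1 (without cortex KCl replicate 2) to 6 leaving out 1 library. Over all TAPEs, calls with KCl ran from 0 to 12 in cortex (6 in the test reported), 0 to 19 in hippocampus (1) and 0 to 34 in striatum (23), and region dependence from 482 to 2026 (912). TAPE values rest on few reads, with a median of 0.737 reads per library over the 114.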
